A study of Mus musculus with 4 samples.

Results

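The genes described here encode the proteins of homologous recombination and of the Fanconi pathway. They are a list of 37 genes, found on the arrays as the spots that are not controls and carry the gene's name in the files. By this rule 35 of the 37 were found, on 47 probes, among 31824 gene names on 39429 probes. Rad51c and Slx4 are not under these names in the files. They were found through a transcript or protein accession, and their values are given apart from the counts.

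Homologous recombination repairs a broken chromosome by copying an intact sister DNA. The broken end is trimmed to a single-stranded tail, the Brca1, Palb2 and Brca2 proteins prepare it for pairing with the sister, and helicases and nucleases then take the joined DNA molecules apart. The Fanconi proteins act where the strands of DNA are linked to each other: a core complex attaches ubiquitin to the Fancd2 and Fanci proteins, and the lesion is then passed to nucleases and to recombination. In fibroblasts this machinery is known to be used mainly in cells that replicate their DNA, since the sister copy is the template.

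Total RNA of mouse embryonic fibroblasts (MEFs) was measured on 4 Agilent 1-color whole-genome arrays. The MEFs were p53+/+ (wild-type, WT) or p53-/-, which lack the transcription factor p53 in all cells, and each genotype was analyzed without and with doxorubicin, a drug that traps topoisomerase II on broken DNA. The labels give neither the dose nor the time of treatment for the arrays, nor the age of the embryos or the number of cultures behind each RNA. Each condition had 1 array and all arrays were on 1 slide, so differences between conditions have no replicate check, and the place on the slide cannot be told apart from the condition.

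Signals are given as a percentage of the 75th percentile of the same array, in a fixed order: WT without drug, WT with drug, p53-/- without drug, p53-/- with drug. A probe was measured where Feature Extraction called it well above background, and a gene was said to rise or fall where 2 arrays on which it was measured differed at least 2-fold. Ratios are on the log2 scale. The brightest negative control spot reached 5.22, 4.26, 13.3 and 4.94% in that order, and values near these levels are hard to tell from background. Repeat spots of a probe gave an SD of 0.11 for a log2 ratio, which holds no variation between cultures. The labels were checked with known p53 targets. Cdkn1a, which encodes the cell cycle inhibitor p21, had signals of 1380, 5828, 51.9 and 244%, and Mdm2, the ubiquitin ligase of p53, of 2521, 10067, 726 and 1003%, so both were lowest in untreated p53-/- MEFs. The Trp53 probe itself had 59.2, 189, 23.5 and 22.4%. Which part of the gene the p53-/- MEFs lack is not given in the sources used here, so this probe is no check by itself. All 8 fibroblast markers were well above background on all 4 arrays, with a summed level between 48521 and 72292%. Single markers differed more than the sum. With doxorubicin, Pdgfrb fell in WT (ratio of -2.44) and p53-/- MEFs (-1.73), and Dcn fell in WT MEFs (-1.30). In untreated MEFs, S100a4 (-2.01) and Dcn (-1.14) were lower in p53-/- than in WT. No other fibroblast marker passed 2-fold in these comparisons. Of 6 leukocyte markers 4 to 6 were called on an array, with summed levels of 116, 440, 93.7 and 117%. The highest sum was thus on the treated WT array, where most of the genes described here were lowest. It came mainly from Cd14, which had 24.8, 331, 29.9 and 46.1%, and Cd68 was called on that array alone (11.6%). Lyz2 went the other way in WT MEFs, with 12.2, 8.24, 5.46 and 1.52%, and was not called in treated p53-/- MEFs. The pan-leukocyte marker Ptprc was between 3.15 and 4.31%, below the brightest negative control of each array. Emr1 (27.8, 32.0, 14.6 and 21.9%) and Cd3e (45.7, 53.4, 37.3 and 41.2%) were above that control on all 4 arrays. Of 4 epithelial markers 2 or 3 were called (555, 953, 525 and 1769% in sum), and of 3 endothelial markers 2 were called on every array (229 to 416%). The part of other cells in the results was not tested. In bulk RNA, fewer cells that express a gene and less RNA per cell cannot be told apart.

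Most of the recombination and Fanconi genes fell in WT MEFs with doxorubicin and did not fall in p53-/- MEFs. Of 30 members measured on both WT arrays, 18 were at least 2-fold lower with doxorubicin, where 10.4% of all 17546 genes measured were, and 2 were at least 2-fold higher, where 11.0% of all genes were. In p53-/- MEFs 34 members were measured. There, 6 were at least 2-fold higher (9.24% of all 16978 genes) and 1 was at least 2-fold lower (6.89% of all genes). The median log2 ratio of the members was -1.47 in WT and 0.54 in p53-/- MEFs, and that of all genes was 0.01 and 0.00. The 6 members that rose in p53-/- MEFs were 17.6% of those measured. At 1.5-fold, 15 of 34 members (44.1%) were higher there, and 19.4% of all genes.

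The 4 arrays kept much the same order from gene to gene. Among the 30 members measured on all arrays, 26 had their lowest signal in doxorubicin-treated WT MEFs, which was the lowest array for 28.6% of all 16538 genes so measured. The exceptions were Xrcc3, Rad52, Rad50 and Mus81, which were lowest in untreated WT MEFs. Of the same 30 members, 23 had their highest signal in doxorubicin-treated p53-/- MEFs, the highest array for 28.2% of all genes. The sign was negative in WT and positive in p53-/- MEFs for 22 of 30 members and for 16.7% of all genes. Array median scaling moved the median of all genes in p53-/- MEFs to -0.30. With it 2 members were at least 2-fold higher there, and the small positive ratios of Brca2, Xrcc3, Rad50, Nbn, Blm and Fancd2 turned negative.

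**Figure D1:**
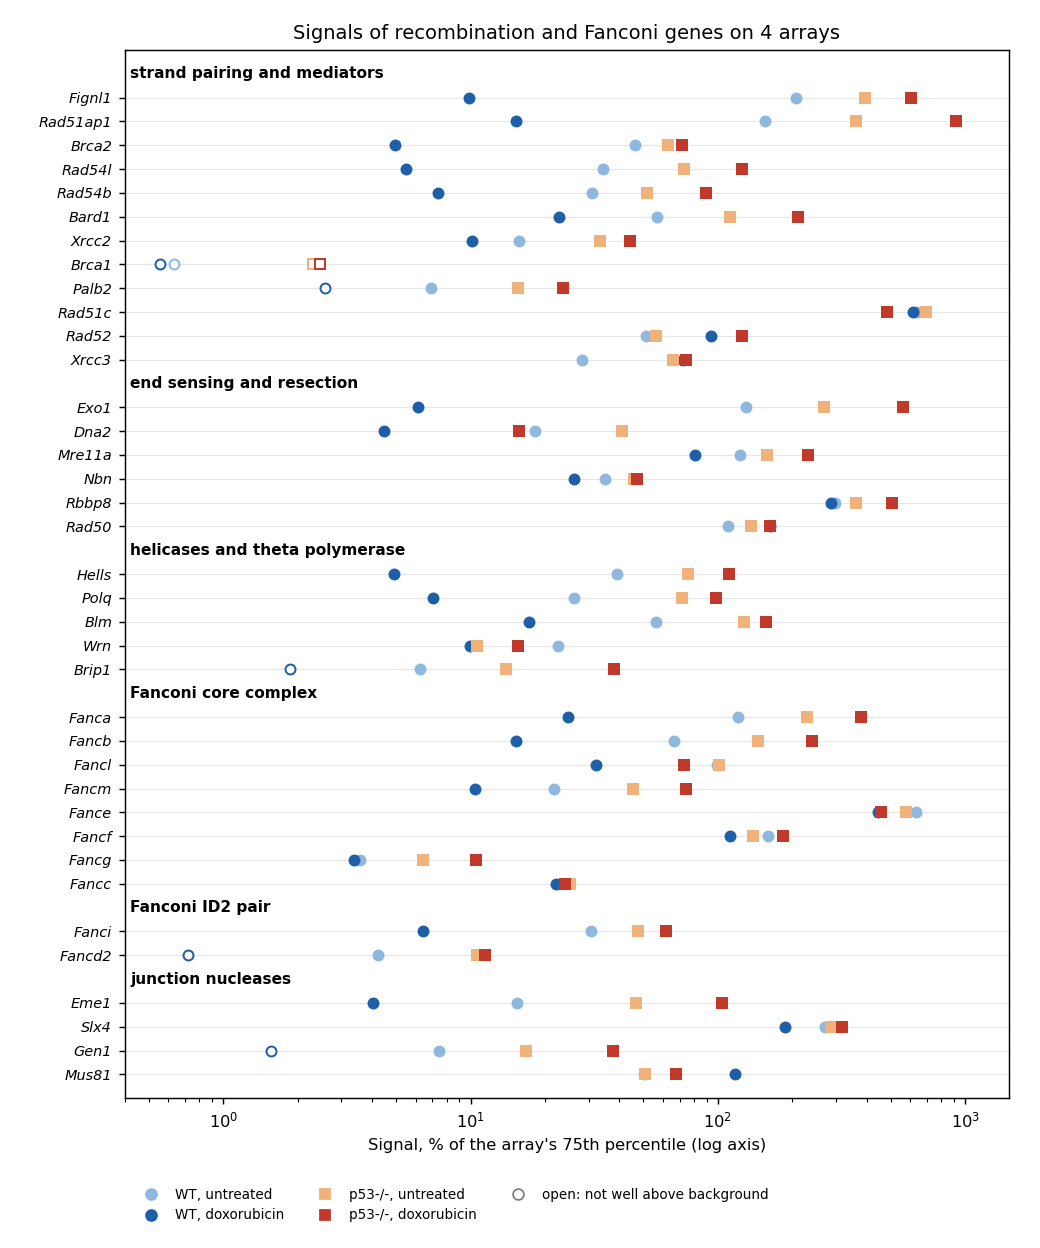
Signal of each of the 37 genes on the 4 arrays, as a percentage of the array's 75th percentile (log axis), by role, with 1 point per array and open points where the probe was not well above background. In most rows the dark blue point of doxorubicin-treated WT MEFs lies leftmost and the red point of doxorubicin-treated p53-/- MEFs rightmost, as it did for 26 and 23 of the 30 members measured on all arrays.

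The difference of the doxorubicin ratios, WT minus p53-/-, had a median of -1.75 over 30 members and of 0.01 over all 16538 genes. It was -1 or lower on the log2 scale for 19 members (9.86% of all genes) and 1 or higher for Xrcc3 alone (8.38% of all genes). With opposite moves of at least 1.5-fold, down in WT and up in p53-/- MEFs, there were 10 of 30 members, or 33.3%, and 1.84% of all genes. Both ratios have their own untreated array, so neither genotype's ratio shares an array with the other.

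**Figure D2:**
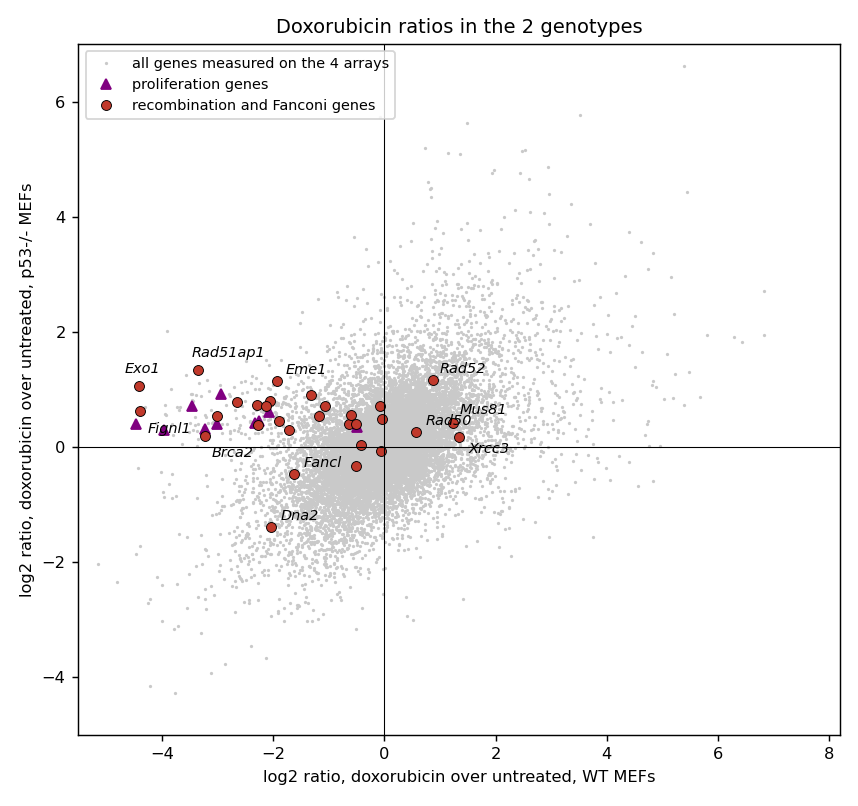
Log2 ratio of the signal with over that without doxorubicin in WT (horizontal axis) and p53-/- (vertical axis), with 1 point per gene measured on all 4 arrays, for 30 recombination and Fanconi genes (red), 10 proliferation genes (purple) and all 16538 genes (gray). The red points stretch to -4.40 along the horizontal axis and lie between -1.39 and 1.34 on the vertical axis.

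Promoter sequence was looked at because so many of the members fell together. A RefSeq table of assembly GRCm38.p6 gave the 250 bases before and 50 bases after the start of transcription for 29 of the 37 genes. Each window was searched on both strands for E2F-type words (TTCCCGC, with the related TTCGCGC, as well as TTGCCGC, with the related TTGGCGC), for the CHR word TTTGAA and for the CCAAT box, and no word of the set contains another. E2F factors are known to bind such E2F-type words in promoters of genes for DNA replication. An E2F-type word was in the window of 16 of the 29 genes (55.2%), against 10.9% of all 27025 genes in the table and 18.4% of the 10827 genes of the table measured on both WT arrays. The median GC content of the windows was 60% for the members and 61.7% for the measured genes. The CHR word was in 3 of 29 (10.3%, against 20.2% of all genes and 14.6% of measured genes), and CCAAT in 15 of 29 (51.7%, against 41.1% and 42.5%).

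Whether the E2F-type word goes with the fall in WT MEFs was not tested. With bounded values included, 21 members were at least 2-fold lower in WT MEFs, and 18 of these had a promoter window. The word was in 11 of these 18 (61.1%). It was in 4 of 10 (40%) that were measured and were not at least 2-fold lower, Rad51c and Slx4 included. The shares of all genes are over those measured on both WT arrays, without bounded values. The word was in 23.0% of the 1173 genes that were at least 2-fold lower in WT MEFs and in 17.8% of the other 9654. The bounded members were Palb2, Brip1 and Gen1. Against the brightest negative control their bounds were under 2-fold (1.63, 1.47 and 1.75-fold). A match is a run of letters, and no binding was measured. The 180 bases before the start are shown for 3 members that fell in WT MEFs and hold the word (Hells, Fignl1, Brca2), for Rad52, which holds it and did not fall, for Fanca, which fell without it, and for Mus81, which rose without it. E2F-type words are in capitals, and each sequence runs 5′ to 3′ on the strand of the gene (RefSeq, GRCm38.p6).
Hells, chr19:38930810-38930989, plus strand: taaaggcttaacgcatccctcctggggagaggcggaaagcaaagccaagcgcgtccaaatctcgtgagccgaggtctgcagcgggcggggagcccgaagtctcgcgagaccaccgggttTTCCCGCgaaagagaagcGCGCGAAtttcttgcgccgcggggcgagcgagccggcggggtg
Fignl1, chr11:11808963-11809142, minus strand: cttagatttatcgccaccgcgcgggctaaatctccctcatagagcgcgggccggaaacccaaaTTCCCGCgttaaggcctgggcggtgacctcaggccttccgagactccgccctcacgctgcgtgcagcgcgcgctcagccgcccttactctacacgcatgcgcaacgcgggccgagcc
Brca2, chr5:150522441-150522620, plus strand: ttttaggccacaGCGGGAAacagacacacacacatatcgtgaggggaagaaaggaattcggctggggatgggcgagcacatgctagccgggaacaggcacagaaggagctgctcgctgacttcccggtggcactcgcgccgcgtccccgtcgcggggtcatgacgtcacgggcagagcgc
Rad52, chr6:119902518-119902697, plus strand: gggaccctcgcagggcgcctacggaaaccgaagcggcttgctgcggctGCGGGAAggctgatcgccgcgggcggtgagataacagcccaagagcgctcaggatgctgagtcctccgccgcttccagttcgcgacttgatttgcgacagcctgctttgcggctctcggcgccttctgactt
Fanca, chr8:123318577-123318756, minus strand: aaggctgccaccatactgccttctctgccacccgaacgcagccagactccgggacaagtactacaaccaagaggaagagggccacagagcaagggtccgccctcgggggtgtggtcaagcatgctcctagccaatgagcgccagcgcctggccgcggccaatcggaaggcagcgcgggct
Mus81, chr19:5488380-5488559, minus strand: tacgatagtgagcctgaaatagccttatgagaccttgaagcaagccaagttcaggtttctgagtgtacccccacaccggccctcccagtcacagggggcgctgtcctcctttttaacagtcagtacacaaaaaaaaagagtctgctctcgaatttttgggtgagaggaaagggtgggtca
The words began at 61 and 43 bases before the start in Hells, at 117 in Fignl1, at 168 in Brca2 and at 132 in Rad52.

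**Figure D3:**
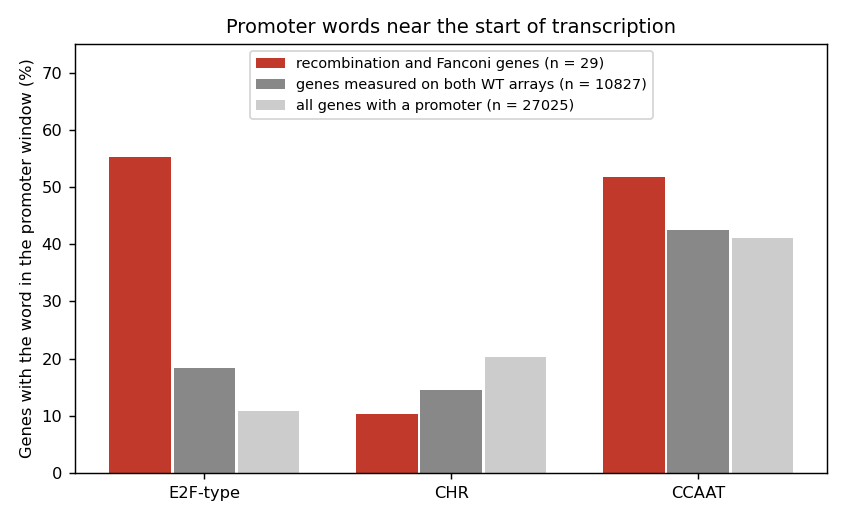
Share of genes (%) with an E2F-type, CHR or CCAAT word in the 300-base promoter window, for 29 recombination and Fanconi genes, 10827 genes measured on both WT arrays and all 27025 genes in the RefSeq table. The red bar stands apart for the E2F-type words (55.2%) and not for CHR (10.3%).

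The counts by role below stand beside the same shares of all genes. In WT MEFs 10.4% fell and 11.0% rose, and in p53-/- MEFs 6.89% fell and 9.24% rose. Strand pairing and its mediators made up 12 of the genes. Of 9 measured on both WT arrays, 6 fell with doxorubicin and Xrcc3 rose, with a median of -2.06, and in p53-/- MEFs 2 of 10 rose and 0 fell, with a median of 0.70. Fignl1, an ATPase of recombination, had signals of 207, 9.85, 394 and 605% (probe at chr11:11700587-11700646, mm9). The treated WT array was far below the other arrays, with a ratio of -4.39 in WT and 0.62 in p53-/- MEFs. A second Fignl1 probe gave -3.86 and 0.46.

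Rad51ap1, which helps to pair DNA strands, had signals of 155, 15.3, 361 and 915% (chr6:126873482-126873541, mm9). Its signal fell 10.1-fold in WT and rose 2.54-fold in p53-/- MEFs, ratios of -3.34 and 1.34. Brca2, the mediator that readies the trimmed tail for strand pairing, had signals of 46.4, 4.95, 62.7 and 71.9% (chr5:151372225-151372284, mm9). Its WT ratio was -3.23 and its p53-/- ratio 0.20, and the treated WT signal stood just above the brightest negative control, so the size of the fall is loosely known. The motor proteins of strand exchange moved alike. Rad54l had 34.3, 5.48, 72.9 and 125%, with ratios of -2.65 and 0.78, and Rad54b had 30.8, 7.39, 51.5 and 89.5%, with ratios of -2.06 and 0.80. The treated WT signal of Rad54l was also near the brightest negative control (4.26%).

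Bard1, the partner of Brca1, had signals of 56.9, 22.8, 112 and 210% on its brightest probe. The ratios of this probe were -1.32 in WT and 0.91 in p53-/- MEFs. Its other probes did not show this. A probe at chr1:71074902-71074961 (mm9) had 7.39, 8.48, 11.5 and 11.7%, with a WT ratio of 0.20. A probe at chr1:71094217-71094276 had 0.64, 14.4, 2.55 and 5.22% and was measured on the treated arrays alone. Its ratio between the treated genotypes, p53-/- over WT, was -1.47, where the brightest probe had 3.20. The fall of Bard1 thus rests on 1 of 3 probes, and the mean of the probes gave a WT ratio of 1.12. Palb2, which links Brca1 to Brca2, had signals of 6.93, 2.58, 15.6 and 23.5% and was not well above background in doxorubicin-treated WT MEFs. Its signal was at least 2.69-fold lower there than in untreated WT MEFs, and 1.51-fold higher with doxorubicin in p53-/- MEFs. Against the brightest negative control in place of the lowest called signal, the WT bound was 1.63-fold. A second Palb2 probe had 3.48, 2.16, 11.3 and 10.2%, below the brightest negative control on both WT arrays and on the untreated p53-/- array, with a p53-/- ratio of -0.15. Over all members, 5 of 6 further probes measured on both WT arrays had the sign of the probe used, and 6 of 8 in p53-/- MEFs, where Palb2 and Fancl were the exceptions.

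Xrcc2, Xrcc3 and Rad51c, related proteins that assist strand pairing, did not move as 1 group in WT MEFs. Xrcc2 had signals of 15.7, 10.1, 33.4 and 44.0%, and its WT ratio of -0.64 did not reach 2-fold. Xrcc3 had 28.3, 71.9, 65.7 and 74.0%, with a ratio of 1.35 in WT and 0.17 in p53-/- MEFs. The untreated WT array was the low one for Xrcc3, and the other arrays lay close together. Rad51c, found by accession, had 636, 615, 695 and 482%, with ratios of -0.05 and -0.53. Rad52, an annealing protein, had 51.2, 93.4, 56.0 and 125%, so it was higher with doxorubicin in both genotypes, by 0.87 in WT and 1.16 in p53-/- MEFs. The Brca1 probe (0.64, 0.56, 2.31 and 2.45%) was not well above background on any array, and no ratio is given.

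The genes of end sensing and resection split by step. Mre11a, Rad50 and Nbn, which together form the complex that first holds a broken end, moved by less than 2-fold in both genotypes. Mre11a had signals of 122, 80.6, 158 and 231%, Rad50 of 110, 163, 136 and 162%, and Nbn of 35.0, 26.3, 45.9 and 47.1%. Rbbp8, the cofactor that starts trimming, had 297, 287, 363 and 505%, and its WT ratio was -0.05.

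Exo1, the exonuclease that extends the trimmed tail, had the largest difference between the genotypes of all 30 members measured on the 4 arrays. Its signals were 130, 6.14, 268 and 561% (chr1:177838682-177838741, mm9). It fell 21.1-fold in WT and rose 2.09-fold in p53-/- MEFs, ratios of -4.40 and 1.07 with a difference of -5.47. The treated WT signal was near the brightest negative control (4.26%), so the size of the fall is loosely known. Dna2, the nuclease that shares this step, had 18.2, 4.46, 41.1 and 15.7%. It alone of the members fell in both genotypes, with ratios of -2.03 (WT) and -1.39 (p53-/-), and its treated WT signal was at the level of the brightest negative control.

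All 4 helicase and polymerase genes measured on both WT arrays fell there, with a median of -1.80, and in p53-/- MEFs 1 of 5 rose and 0 fell, with a median of 0.54. Hells, a chromatin remodeling helicase also known for its part in DNA methylation, had signals of 39.2, 4.90, 75.9 and 110%, with ratios of -3.00 and 0.54. Its treated WT signal stood just above the brightest negative control (4.26%), so the size of the fall is loosely known. Polq, the polymerase of theta-mediated end joining, had 26.3, 7.05, 71.5 and 98.0%, with ratios of -1.90 and 0.45. Blm, the helicase that dissolves joined DNA molecules, had 56.1, 17.2, 128 and 156%, with ratios of -1.71 and 0.29.

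Wrn, a related RecQ helicase, had a pattern of its own, with 22.6, 9.97, 10.7 and 15.5%. The untreated WT array was the highest, and Wrn was the only member at least 2-fold lower in untreated p53-/- than in untreated WT MEFs, with a ratio of -1.08. The untreated p53-/- signal was below the brightest negative control of that array. For Wrn, the p53-/- ratio with doxorubicin was 0.54, and -0.75 with the mean of its probes, of which the second was not well above background on any array. Brip1, a helicase that binds Brca1, had 6.24, 1.86, 13.9 and 38.2% and was not measured in doxorubicin-treated WT MEFs. It was at least 2.56-fold lower there than in untreated WT MEFs (1.47-fold against the brightest negative control). In p53-/- MEFs its ratio of 1.46 was the highest of the 34 members.

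Within the Fanconi core complex, 4 of 8 genes fell in WT MEFs and the others stayed within 2-fold. In p53-/- MEFs 0 of 8 passed 2-fold in either direction. Fanca had signals of 120, 24.7, 228 and 377%, with ratios of -2.28 and 0.73 (chr8:125792210-125792269, mm9). Fancb, the X-linked member, had 66.4, 15.3, 146 and 239%, with ratios of -2.12 and 0.72. Both were lowest in doxorubicin-treated WT MEFs and highest in doxorubicin-treated p53-/- MEFs.

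Fancm, the translocase that anchors the complex to DNA, had 21.8, 10.4, 45.2 and 74.2%, with ratios of -1.06 and 0.72. Fancl, the ubiquitin ligase of the complex, had 98.8, 32.2, 101 and 72.6%, with ratios of -1.62 and -0.47, and a second probe gave -1.19 and 0.03. The subunits Fancc, Fance, Fancf and Fancg had WT ratios between -0.51 and -0.06. Fance had 630, 444, 574 and 456%, Fancf had 159, 112, 138 and 183%, and Fancc had 22.9, 22.1, 25.3 and 24.0%. These 3 genes differed by less than 2-fold among the arrays. A second Fancc probe had a WT ratio of -1.78, with a treated WT signal of 3.50%, below the brightest negative control. Fancg had 3.59, 3.38, 6.42 and 10.5%, and was below the brightest negative control on all but the treated p53-/- array.

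The core complex acts on the pair of Fanci and Fancd2. Fanci had 30.8, 6.40, 47.3 and 61.8%, with ratios of -2.27 (WT) and 0.38 (p53-/-). Fancd2 was weak, with 4.21, 0.72, 10.6 and 11.4%, and above the brightest negative control on the treated p53-/- array alone. Its signal was at least 1.73-fold lower in doxorubicin-treated than in untreated WT MEFs, and no such bound was left against the brightest negative control.

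Of the 2 junction nuclease genes found by name and measured on both WT arrays, Eme1 fell and Mus81 rose in WT MEFs. Eme1 and Mus81 encode the subunits of 1 enzyme. Eme1 had 15.3, 4.02, 46.8 and 104%, with ratios of -1.93 (WT) and 1.15 (p53-/-). Mus81, which holds the catalytic site, had 50.1, 117, 50.5 and 67.7%, with ratios of 1.23 and 0.42 (chr19:5483932-5483991, mm9). The treated WT array was thus the lowest for Eme1, where it was below the brightest negative control, and the highest for Mus81. With array median scaling 1 member was at least 2-fold higher in WT MEFs, and this was Xrcc3 and not Mus81. Gen1, a resolvase, had 7.46, 1.56, 16.8 and 37.5%, at least 3.06-fold lower in doxorubicin-treated than in untreated WT MEFs (1.75-fold against the brightest negative control) and 2.23-fold higher with doxorubicin in p53-/- MEFs. Slx4, the scaffold of these nucleases, was found by accession and had 272, 187, 288 and 317%, with ratios of -0.54 and 0.14.

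The genotypes already differed without the drug. In untreated MEFs, 15 of 34 members were at least 2-fold higher in p53-/- than in WT (2.15% of all 17318 genes), and Wrn was the 1 that was lower (2.62% of all genes). The median ratio was 0.94, against 0.00 for all genes. The 15 were Palb2, Rad51ap1, Xrcc2, Xrcc3, Rad54l, Exo1, Blm, Dna2, Brip1, Fancb, Fancd2, Fancm, Eme1, Gen1 and Polq. Fancd2 was below the brightest negative control on both untreated arrays. Brip1, Palb2 and Gen1 were just above it on the untreated p53-/- array (13.9, 15.6 and 16.8% against 13.3%). With signals above the brightest negative control, the count was 14 of 31. Eme1 had the highest ratio, 1.61. The others of the 15 lay between 1.05 and 1.44, so many stood close to the threshold, and with normexp background correction the count was 9 and Wrn was no longer past 2-fold.

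With doxorubicin, 20 of 30 members were at least 2-fold higher in p53-/- than in WT MEFs (11.9% of all 17918 genes) and 0 were at least 2-fold lower (10.3% of all genes), with a median of 2.47 against 0.00 for all genes. The widest gaps were those of Exo1 (6.51), Fignl1 (5.94) and Rad51ap1 (5.91). Genes that were weak in treated WT MEFs had lower bounds here: Brip1 was at least 15.7-fold, Gen1 at least 15.4-fold, Palb2 at least 9.13-fold and Fancd2 at least 4.68-fold higher in p53-/- MEFs. Against the brightest negative control these bounds were 8.96, 8.81, 5.53 and 2.68-fold in the same order. Rad50 (0.00) and Xrcc3 (0.04) had nearly the same level in both, and Mus81 had a ratio of -0.80. Each of these genotype comparisons uses arrays that the doxorubicin ratios also use, so they give the same signals in another order and are no second measurement.

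Among genes that work beside the members, the medians had the same signs and were nearer to 0. Of 51 other genes of these pathways, 38 were found and 33 were measured on both WT arrays. There, 14 fell (10.4% of all genes) and 1 rose (11.0% of all genes), with a median of -0.85. In p53-/- MEFs 3 of 37 rose (9.24% of all genes) and 1 fell (6.89% of all genes), with a median of 0.43. The difference of ratios had a median of -0.91. Among the 5 with the largest difference were Atad5, which unloads the replication clamp (ratios of -2.53 (WT) and 0.52 (p53-/-)), Usp1, which removes ubiquitin from Fancd2 (-2.11 and 0.63), Rpa2 (-1.56 and 1.09) and Rpa1 (-1.55 and 0.43). Rpa1 and Rpa2 are subunits of the protein that coats single-stranded DNA.

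The genes of non-homologous end joining, a repair route that needs no sister copy, had medians near 0. Polq, of theta-mediated end joining, is counted among the members and not here. Of 13 measured, 2 fell (10.4% of all genes) and 0 rose (11.0% of all genes) in WT MEFs, with a median of 0.00. In p53-/- MEFs 0 fell (6.89% of all genes) and 1 rose (9.24% of all genes), with a median of -0.02. Their difference of ratios had a median of -0.23, against -1.75 for the recombination and Fanconi genes, and no test was made of this. Mad2l2 stands in this list and in that of the other pathway genes.

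Proliferation markers moved with the members. Of 10 such genes, 9 fell in WT MEFs (10.4% of all genes), with a median of -2.97. In p53-/- MEFs 0 passed 2-fold, where 9.24% of all genes rose and 6.89% fell, with a median of 0.41 for the 10. Top2a, the topoisomerase of dividing cells, had signals of 180, 8.12, 452 and 597% and a WT ratio of -4.47, and Mki67, a marker of cycling cells, had 981, 62.7, 1970 and 2428% and -3.97. For the others the WT ratios were -3.45 (Mcm3), -3.22 (Cdk1), -3.01 (Mcm2), -2.94 (Aurka), -2.33 (Ccnb1), -2.26 (Ccna2), -2.08 (Pcna) and -0.50 (E2f1). In untreated MEFs, 5 of the 10 were at least 2-fold higher in p53-/- than in WT (2.15% of all genes). Their median of 0.94, over the 10, was the same as for the members. The part of the share of dividing cells in the values of the members was not tested.

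**Figure D4:**
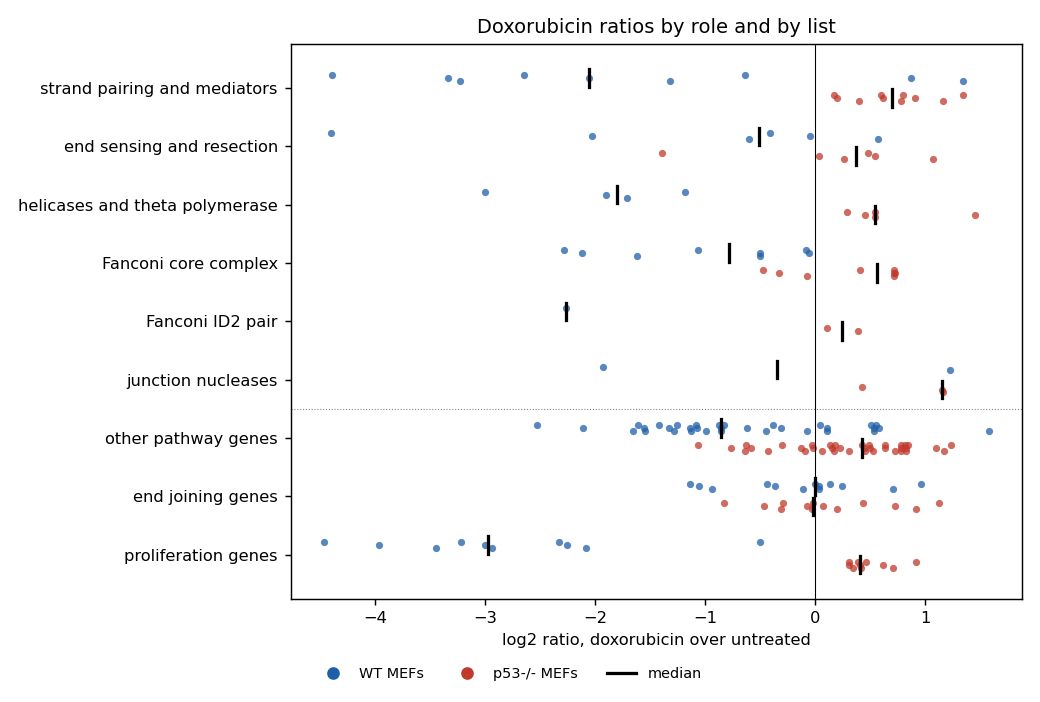
Doxorubicin ratios (log2 of treated over untreated signal) in WT (blue) and p53-/- (red), with 1 point per gene found by name and measured, by role of the recombination and Fanconi genes and for the other lists, with medians as black lines. The WT medians lie at -2.06 for strand pairing, -1.80 for helicases and polymerase, -0.79 for the core complex, 0.00 for end joining and -2.97 for proliferation genes.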

How the data were processed

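The authors labeled 200 ng of each RNA with Cy3 and hybridized the 4 samples to 4 arrays, 1 per condition, with 1 replicate each. The deposited intensities were made by Agilent Feature Extraction (version 10.7.3.1), which subtracted background and corrected trends within an array, and arrays were not normalized to each other. A deposited table of the intensities of all arrays was equal to the processed ones at every spot. Deposited flags were coded as 0 or 1 for spots well above background, saturated or outlying. Positions of probes are on mm9, as the files give them.

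Outlier spots (145 to 168 of 43020 per array) were dropped, and no array had a saturated spot (0 in all). The log2 intensities of repeat spots were averaged, and each array was scaled to its 75th percentile (signals of 2074, 1819, 1881 and 2421). Between 56.9 and 62.9% of the probes were well above background. Where a gene had several probes, the one with the highest mean level stood for it. A ratio needed a call on both arrays. With a call on 1 array only, the ratio was bounded by the lowest called signal of the other (2.44 to 3.60% of the 75th percentile) or the probe's own signal, if higher. Precision is limited by the number of arrays, and no test was made. SDs come from 253 probes spotted 10 times and well above background on all arrays.

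All members are named. Of the other pathway and end joining genes, the 5 with the largest difference of ratios were to be named, and 1 of them is not reported here. The members, the lists and the rules were chosen with earlier results of these data known. Names of the RefSeq table (GRCm38.p6) were used for promoters, for Rad51c and Slx4, and as an alternative. Other alternatives were array median scaling, quantile normalization, normexp (offset 50), the deposited table, no filter on dim probes, calls on all 4 arrays, signals above the brightest negative control, the mean of a gene's probes, and thresholds of 1.5-fold and 3-fold. The steps were tested on simulated data. Python 3.11.15 (numpy 2.4.6, pandas 2.3.3, matplotlib 3.10.9) and R 4.3.3 (limma 3.58.1, for normexp) were used.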

Additional observations from a re-analysis of the deposited data

Results flagged for a closer look

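In 10 of the 30 members measured on all 4 arrays, doxorubicin went with a signal at least 1.5-fold lower in WT and at least 1.5-fold higher in p53-/- MEFs. These were 33.3% of the members, and 1.84% of all 16538 genes so measured had this pattern. With 1 array per condition the difference was not tested. The difference of the log2 ratios, WT minus p53-/-, was -5.47 for Exo1, -5.01 for Fignl1 and -4.69 for Rad51ap1. It was -3.42 for Rad54l, -3.08 for Eme1 and -3.01 for Fanca. The remaining values were -2.86 for Rad54b, -2.84 for Fancb, -2.23 for Bard1 and -1.78 for Fancm. All 10 kept a negative WT ratio and a positive p53-/- ratio with array median scaling, quantile normalization and normexp. With the mean of all probes of a gene, Bard1 did not. This was a check of signs, not of the 1.5-fold size. Array median scaling shifted the p53-/- ratios by about -0.30. The p53-/- ratios of Fignl1, Fanca, Fancb, Fancm, Rad54l and Rad54b (0.62 to 0.80 before) were then positive but under 1.5-fold. No member rose in WT and fell in p53-/- MEFs by 1.5-fold, and the share of all genes that did is not given here.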

How the results depend on the processing

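With array median scaling, the median of all genes shifted by -0.27 in WT and -0.30 in p53-/- MEFs. The members' medians became -1.74 in WT and 0.24 in p53-/- MEFs, with 1 member higher in WT and 2 in p53-/- MEFs, and Brca2, Xrcc3, Rad50, Nbn, Blm and Fancd2 turned negative in p53-/- MEFs. With normexp the medians were -1.12 in WT, 2.08 between the treated genotypes and -1.37 for the difference of ratios, and in untreated MEFs 9 members were higher and 0 lower in p53-/-. Without the filter on dim probes these medians were -1.62, 3.18 and -1.99 over 35 members, with the mean of a gene's probes -1.09, 1.87 and -1.22, and with RefSeq names -1.25, 1.97 and -1.44 over 32 members. The mean of the probes turned the sign of Bard1 (WT ratio 1.12, difference 0.47) and, in p53-/- MEFs, of Wrn (0.54 to -0.75) and Fancc (-0.07 to 0.34), and left 0 members lower in p53-/- MEFs with doxorubicin and 0 lower in untreated p53-/- than WT MEFs. The latter count was also 0 with signals above the brightest negative control. At 1.5-fold, 15 members were higher in p53-/- MEFs with doxorubicin, where 19.4% of all genes were. At this threshold 1 member was lower in p53-/- than in WT MEFs with doxorubicin, and 2 had a higher ratio in WT MEFs. For the other counts in this paragraph, the shares of all genes under the same setting are not given. At 3-fold, 0 members were higher in WT, 0 higher and 0 lower in p53-/- MEFs with doxorubicin, 1 higher and 0 lower in untreated p53-/- than WT MEFs, and 0 had a higher ratio in WT MEFs. The cause of these shifts was not tested. The counts of members lower in WT MEFs and higher in treated p53-/- than in treated WT MEFs stayed within 1.5 times under every alternative. Of 1401 single ratios recomputed, 1188 moved by less than the SD of repeat spots, 211 by more, and 2 that were at least 2-fold changed turned their sign, both of Bard1. Smaller ratios that turned are among the 211 or the 1188, those of Nbn and Fancd2 with quantile normalization included. A fit with the slide as a block could not be made with 1 slide. No paired analysis was possible because each condition had 1 array and no test was made. Low signals limit the sizes of the falls in WT MEFs.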
